A study of Mus musculus with 10 samples.

Results

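Intermediate filaments are rope-like polymers of coiled-coil proteins that give cells mechanical strength. Vimentin is the filament protein of mesenchymal cells, desmin that of muscle, and nestin and synemin join them in progenitor and muscle cells. Plectin is a giant linker that ties filaments to each other, to actin and to the cell surface. The lamins are the nuclear branch of the family and form the lamina, the meshwork beneath the inner nuclear membrane. B-type lamins are made in nearly all cells, whereas A-type lamin is low in early embryos and increases as cells differentiate.

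The genes examined were 8 of the 21868 genes in a table of RNA-seq read counts: the cytoplasmic filament genes Nes (nestin), Des (desmin), Vim (vimentin) and Synm (synemin), the linker gene Plec (plectin) and the lamina genes Lmna, Lmnb1 and Lmnb2. They were taken by symbol, and each matched 1 row of the table. The family was chosen by function and with the difference between the genotypes in these same data already known, Nes having passed the test of that difference. The values for that contrast are therefore given as a description and are not independent evidence.

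The cells were mouse cells selected on Flk1, a receptor (gene Kdr) that marks the shared precursors of blood and endothelium. They came from embryoid bodies, floating aggregates of embryonic stem cells that differentiate after the cytokine LIF is withdrawn. One genotype was Ldb1+/+ (WT) and the other Ldb1-/- (KO), which lacks the transcriptional adaptor Ldb1. Both genotypes were grown without LIF and sorted for Flk1, and no other allele or agent is named for either genotype. The labels give neither the day of the RNA samples nor the number of stem cell clones behind each genotype. A difference between the genotypes cannot be told apart from one between the stem cell lines, and fewer cells of a type cannot be told apart from less RNA per cell.

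Each genotype had 4 RNA libraries, whose counts summed to between 11258493 and 13483294. Libraries 1 and 2 of each genotype gave counts close to each other, nearly at the noise of read sampling, and so did libraries 3 and 4. Reads of the first pair were therefore summed as sample A and those of the second pair as sample B, n = 2 per genotype. Whether A and B came from separate cultures is not stated, and p-values reflect only how far these samples spread, which may be technical. Kdr, the sorted marker, was present in every library, at 440 to 610 counts per 1000000 reads (CPM) in WT and 76.1 to 236 CPM in KO. Ldb1 transcripts stood at 104 to 116 CPM in WT libraries and 79.1 to 96.6 CPM in KO libraries, and without the structure of the allele these reads check nothing.

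Nes rose in KO. Des and Lmna also had higher values there and Vim lower ones, but these did not pass the test. The upstream sequences of Nes, Des and Vim are shown because, of all 28 pairs of members, Nes and Des had the most similar profile over the 4 samples and Des and Vim the least similar. Each is the 250 bases before the annotated start, on the plus strand, from RefSeq on GRCm38.p6. Capitals mark matches, on either strand, to the GC box GGGCGG, the E-box CAGNTG or the TATA box TATAAA.

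Nes, chr3:87970843-87971092: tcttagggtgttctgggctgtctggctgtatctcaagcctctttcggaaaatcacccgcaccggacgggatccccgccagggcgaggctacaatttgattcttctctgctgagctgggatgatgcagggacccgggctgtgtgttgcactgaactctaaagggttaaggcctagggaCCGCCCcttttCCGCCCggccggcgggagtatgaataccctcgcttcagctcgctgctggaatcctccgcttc
Des, chr1:75360042-75360291: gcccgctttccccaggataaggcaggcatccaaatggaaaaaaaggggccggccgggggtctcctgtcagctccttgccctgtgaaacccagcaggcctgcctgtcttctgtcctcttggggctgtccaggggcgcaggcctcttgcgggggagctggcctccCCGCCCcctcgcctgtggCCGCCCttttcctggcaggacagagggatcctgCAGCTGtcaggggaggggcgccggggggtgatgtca
Vim, chr2:13574061-13574310: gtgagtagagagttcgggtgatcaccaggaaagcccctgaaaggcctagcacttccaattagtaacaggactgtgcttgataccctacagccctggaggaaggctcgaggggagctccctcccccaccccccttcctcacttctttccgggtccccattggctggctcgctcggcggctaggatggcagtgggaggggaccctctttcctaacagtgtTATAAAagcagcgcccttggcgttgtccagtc

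The Nes and Des windows each held 2 GC boxes and no TATA box, whereas the Vim window held 1 TATA box and no GC box. Of 32851 windows of this length in the RefSeq table, 32.7% held a GC box and 12.4% a TATA box. Des also held an E-box, CAGCTG, present as CAGNTG in 44.8% of windows. The GATA motif, searched as AGATAA or TGATAA and found in 16.6% of windows, was absent from all 3. The GC content was 58.8% for Nes, 67.2% for Des and 58.4% for Vim, against a median of 52.4%. These letters describe the windows and say nothing of what binds there.

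Nes (ENSMUSG00000004891), which encodes the progenitor filament protein nestin, stood at 110.7, 111.3, 109.7 and 109.9 CPM in WT libraries 1 to 4 and at 258, 257, 273 and 280 CPM in KO libraries 1 to 4. The WT libraries were nearly level, and every KO library lay far above every WT library. Per sample the level was 110.0 ± 0.802 CPM in WT against 268 ± 15.2 CPM in KO (SD, n = 2 each), a log2 fold change of 1.29 (SE 0.13) or a ratio of 2.44. Its edgeR quasi-likelihood adjusted p was 0.0493, rank 26 of 16785 genes tested. Nes was the 1 member called, where edgeR called 0.185% of all genes in either direction and 0.0596% as higher in KO.

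The call of Nes lay at the edge of the threshold. Its edgeR adjusted p was 0.0524 without KO library 2. With a whole sample left out, 1 genotype has a lone sample whose spread is not measured, so only sizes are given. The size of the difference moved little, from 1.23 to 1.35 over all single libraries and samples left out.

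Des (ENSMUSG00000026208), the gene of the muscle filament protein desmin, stood at 64.97, 69.9, 73.4 and 76.9 CPM in the WT libraries and 162, 174, 200.1 and 199.6 CPM in the KO libraries. As for Nes, the genotypes were widely separated, and within KO sample B lay above sample A. The means were 71.0 ± 5.44 CPM in WT against 185 ± 23.8 CPM in KO, a log2 fold change of 1.38 (SE 0.15) or a ratio of 2.60. The edgeR adjusted p was 0.0614, so Des did not pass although its estimated difference was the largest of the 8. Without WT library 4 the edgeR adjusted p was 0.0460. With 1 sample left out, the log2 fold change of Des was 1.295 (WT A), 1.46 (WT B), 1.51 (KO A) or 1.24 (KO B). In RefSeq the Des gene overlaps the noncoding gene Gm15179, and Plec the microRNA gene Mir1942. The strand setting of the counting is not stated, so their reads cannot be told apart.

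Vim (ENSMUSG00000026728), the gene of vimentin, was the most abundant member and the one member below WT in every KO library. It stood at 703, 705, 775 and 780 CPM in WT against 531, 538, 568 and 575 CPM in KO. The genotypes did not overlap, but the gap was small beside that of Nes or Des. The means were 738 ± 52.5 CPM in WT against 555 ± 29.9 CPM in KO, a log2 fold change of -0.41 (SE 0.13) that missed the threshold of the edgeR test (adjusted p = 0.218).

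Synm (ENSMUSG00000030554), which encodes the large filament protein synemin, was the scarcest member at 12.3 to 17.4 CPM in WT against 11.7 to 18.3 CPM in KO, with 134 to 234 reads in each library. The genotypes overlapped, and the log2 fold change was -0.06 (SE 0.23, edgeR adjusted p = 0.947). Plec (ENSMUSG00000022565), the gene of the linker plectin, stood at 147, 149, 129 and 123 CPM in WT against 167, 163, 121 and 128 CPM in KO. Its libraries separated by sample and not by genotype, with sample A above sample B in both. The log2 fold change was 0.09 (SE 0.18, edgeR adjusted p = 0.895).

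**Figure D1:**
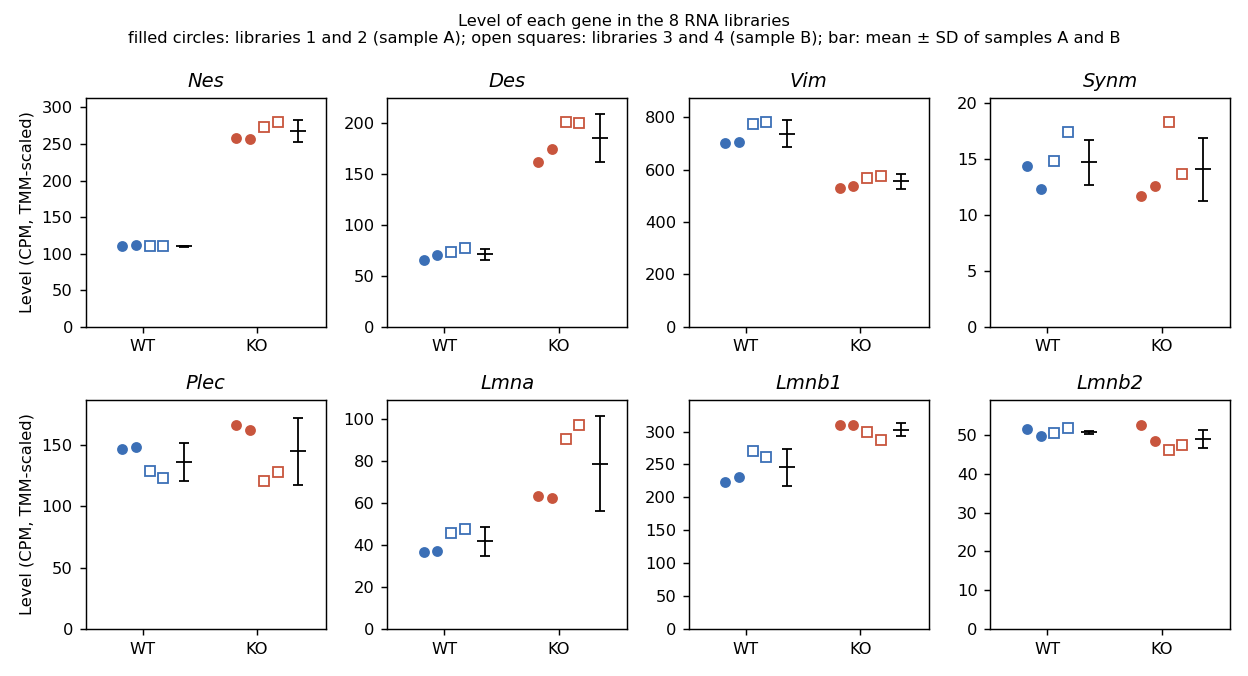
Level in CPM (vertical axes, from 0) of each of the 8 genes in the 4 WT and 4 KO libraries, with the mean ± SD of samples A and B beside them. Nes, Des, Lmna and Lmnb1 lie higher in all KO libraries, Vim lies lower, and Synm, Plec and Lmnb2 overlap.

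In the lamina, Lmna (ENSMUSG00000028063), which encodes the A-type lamins, stood at 36.5, 37.3, 45.9 and 47.8 CPM in WT against 63.1, 62.3, 90.5 and 97.3 CPM in KO. All KO libraries lay above all WT libraries, and sample B lay above sample A in both genotypes. The means were 41.7 ± 7.03 CPM in WT against 78.7 ± 22.7 CPM in KO, a log2 fold change of 0.92 (SE 0.25) that missed the threshold of the edgeR test (adjusted p = 0.179). With 1 sample left out, the log2 fold change of Lmna was 0.745 (WT A), 1.10 (WT B), 1.19 (KO A) or 0.585 (KO B).

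Lmnb1 (ENSMUSG00000024590), a B-type lamin gene, stood at 223, 230.3, 271 and 262 CPM in WT against 310.4, 310.0, 299 and 287 CPM in KO. The KO libraries were above the WT libraries, yet the nearest of them were close. The means were 246 ± 28.1 CPM in WT against 303 ± 10.2 CPM in KO, a log2 fold change of 0.30 (SE 0.14, edgeR adjusted p = 0.386). Lmnb2 (ENSMUSG00000062075), the other B-type gene, stood at 49.8 to 51.9 CPM in WT against 46.2 to 52.7 CPM in KO. Its genotypes overlapped, with a log2 fold change of -0.05 (SE 0.13, edgeR adjusted p = 0.914).

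Over the family the median log2 fold change was 0.19, against -0.01 over all 16785 genes tested, with 5 of 8 members above 0. In 4 members every KO library was above every WT library, where 14.4% of all genes did so, and in 1 member every KO library was below, where 14.3% of all genes did so. With DESeq2, another count model, 3 members were higher at an adjusted p under 0.05, Nes (2.1e-15), Des (2.81e-11) and Lmna (0.0181), where it called 3.58% of genes with an adjusted p as higher in KO. Limma-voom called no member and no gene of the lists described below, and Nes had an adjusted p of 0.0758. With 1 sample left out, the members' median log2 fold change by edgeR was 0.19 (WT A), 0.26 (WT B), 0.20 (KO A) or 0.30 (KO B). A single value compared between 2 and 2 samples cannot reach an exact permutation p below 0.333.

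The difference between samples of one genotype gives a scale for these values. Sample B minus sample A, in log2, was -0.01 for Nes in WT and 0.12 in KO, and 0.16 and 0.26 for Des, all small beside the difference between genotypes. For Lmna it was 0.34 in WT and 0.60 in KO, both below the genotype difference of 0.92. For Plec it was -0.23 in WT and -0.39 in KO, and for Synm 0.27 and 0.41, both larger than the genotype difference. For Vim it was 0.15 and 0.11, opposite in sign to the genotype difference. For Lmnb1 it was 0.23 in WT and -0.07 in KO, and for Lmnb2 0.02 and -0.10. In 5 of 8 members the sign was the same in both genotypes. Over the 10606 genes with a mean of at least 10 CPM the median absolute difference was 0.19 in WT and 0.16 in KO. With 1 sample against 1 these differences have no test.

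**Figure D2:**
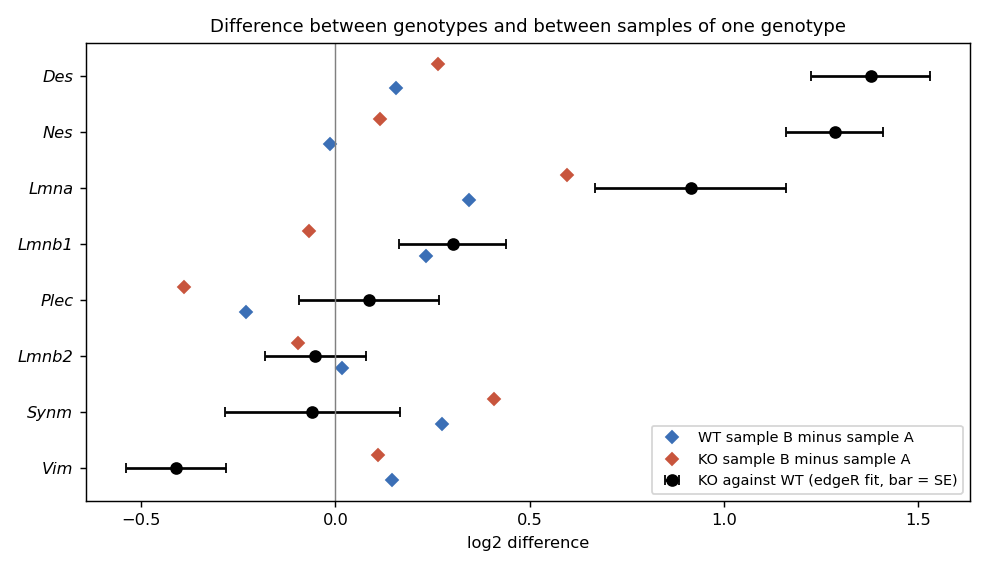
For each gene, the log2 fold change of KO against WT (black, bar = SE) beside the log2 difference of sample B from sample A in WT (blue) and in KO (red). The Nes and Des differences between genotypes (1.29 and 1.38) lie well beyond their differences between samples, while those of Plec and Synm lie within them.

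Corrected for length, the members differed widely in level. In CPM per 1000 bases of the deposited transcript length, the order in WT was Vim (339 ± 24.1), Lmnb1 (86.4 ± 9.89), Des (32.9 ± 2.52), Lmna (18.9 ± 3.19), Nes (18.0 ± 0.131), Lmnb2 (15.1 ± 0.121), Plec (8.83 ± 1.00) and Synm (2.55 ± 0.344; SD, n = 2). Only Lmna and Nes, neighbours in this order, overlapped between their samples. Vim exceeded Lmnb1 by a ratio of 3.93, and on this scale it was higher than 98.2% of all genes tested, whereas Synm was higher than 26.3%.

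In KO the order on the same scale was Vim (255 ± 13.7), Lmnb1 (106.6 ± 3.59), Des (85.6 ± 11.04), Nes (43.8 ± 2.49), Lmna (35.7 ± 10.3), Lmnb2 (14.5 ± 0.690), Plec (9.38 ± 1.78) and Synm (2.45 ± 0.489). Nes and Lmna had exchanged places and still overlapped between their samples. The distance from Lmnb1 to Des had narrowed from a ratio of 2.62 in WT to 1.24 in KO.

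The summed level of the 4 cytoplasmic filament genes of the family, Nes, Des, Vim and Synm, was nearly the same in both genotypes although its makeup was not. The sum per 1000 bases was 374 (A) and 412 (B) in WT against 368 (A) and 407 (B) in KO. Vim made up 86.2% and 86.6% of it in WT and 66.8% and 65.2% in KO. The share of Des was 8.33% and 8.43% in WT and 21.2% and 22.96% in KO, and that of Nes was 4.83% and 4.34% in WT and 11.4% and 11.2% in KO. For these 3 genes the 2 genotypes did not overlap and the samples of a genotype lay close together. Synm held 0.571% to 0.686% in all 4 samples. These shares restate the levels above and have no test of their own. Keratins are cytoplasmic filament genes too and are not in this sum, so sum and shares hold only for the 4 genes chosen. On the same scale Krt8 stood at 225 (A) and 336 (B) in WT and 526 (A) and 724 (B) in KO, while Krt19 overlapped between genotypes.

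Among the 3 lamin genes, Lmnb1 held the largest share in every sample, at 71.5% and 71.99% in WT and 71.5% and 64.6% in KO. The Lmna share was 15.0% and 16.3% in WT and 18.6% and 26.7% in KO. The ratio of Lmna to Lmnb1 per length was 0.210 and 0.227 in WT and 0.261 and 0.414 in KO. The KO samples were above the WT samples in this ratio but differed more from each other than KO sample A did from WT. The sum of the 3 genes was 111 and 130 in WT and 153 and 161 in KO, in CPM per 1000 bases.

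**Figure D3:**
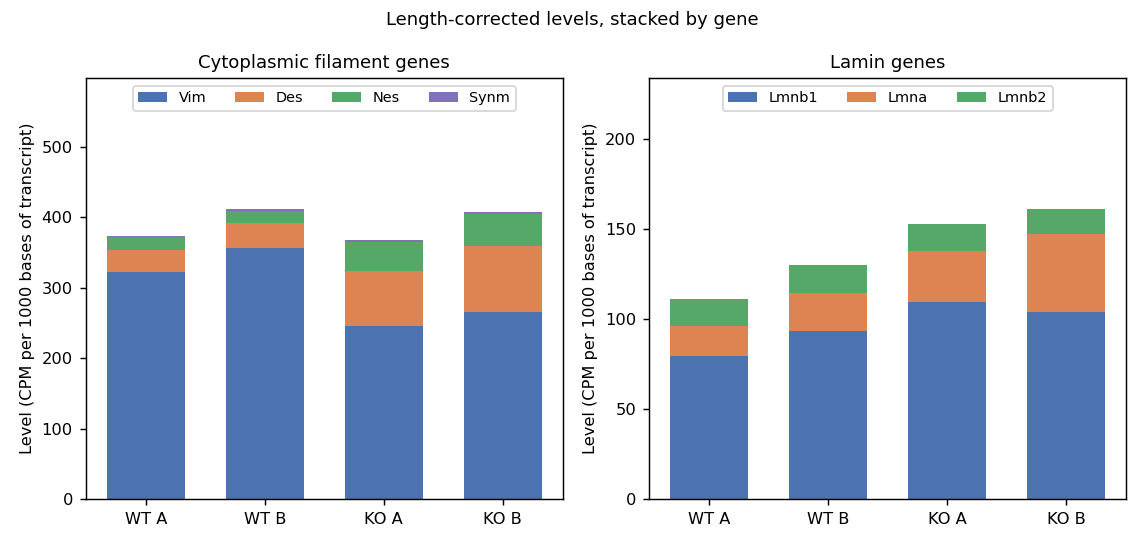
Stacked levels in CPM per 1000 bases of transcript (vertical axes, from 0) of Nes, Des, Vim and Synm (left) and the lamin genes (right) in each sample. Keratins are not included. The left-hand totals run from 368 to 412 in all 4 samples while Vim shrinks from 86.2% or more to 66.8% or less in KO, and the right-hand totals are 153 and 161 in KO against 111 and 130 in WT.

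Other intermediate filament genes included keratins, the filament proteins of epithelia, and neurofilaments. As background for the lists from here on, 1278 higher and 1319 lower of all 16785 genes tested had an unadjusted p under 0.05. Of 15808 genes with a DESeq2 adjusted p, 566 were called higher and 593 lower. Of 15 other filament genes listed, 12 were tested and 0 passed by edgeR. An unadjusted p under 0.05 was seen for 3 higher and 0 lower genes, with DESeq2 calling the same numbers. The 3 by edgeR were Krt8, Krt18 and, named after its value was seen, Krt7. Krt8, which pairs with Krt18 in simple epithelia, stood at 399 CPM (A) and 596 CPM (B) in WT against 934 CPM (A) and 1284 CPM (B) in KO (log2 difference 1.16, SE 0.26, edgeR adjusted p = 0.145). Krt18 stood at 326 (A) and 465 (B) CPM in WT against 761 (A) and 1083 (B) CPM in KO (log2 difference 1.22, SE 0.26, edgeR adjusted p = 0.130).

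Per 1000 bases Krt8 stood at 225 and 336 in WT and 526 and 724 in KO, and Krt18 at 236 and 336 in WT and 551 and 784 in KO. Krt19, named after its value was seen, stood at 153 and 236 in WT and 182 and 313 in KO, and its genotypes overlapped. Vim was above Krt8 and Krt18 in each WT sample and below both in each KO sample. The neurofilament genes, also picked once the values were seen, were split. Nefl and Nefm differed by 0.20 (SE 0.30) and 0.31 (SE 0.26) in log2, and Nefh by -1.22 (SE 0.88). Nefh was at 9.35 (A) and 1.77 (B) CPM in WT against 1.56 (A) and 3.20 (B) CPM in KO. Gfap, the astrocyte filament gene, had 4 reads in WT and 4 in KO and was not tested.

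Plakins and desmosome genes encode the relatives of plectin and the junctions to which keratin filaments attach. Of 13 listed, 12 were tested and 0 passed by edgeR, with 6 higher and 0 lower at an unadjusted p under 0.05 and 5 higher by DESeq2. The list's median log2 fold change was 0.64. The 6 were Ppl, Dsp, Pkp2, Pkp3, Dsg2 and Dsc2, named after their values were seen, with Dsc2, a desmosomal cadherin gene, the highest at 1.40 (SE 0.21). The most abundant, the cytoskeletal linker genes Macf1 and Dst, stood at 0.27 (SE 0.28) and 0.46 (SE 0.38). Macf1 was at 384 (A) and 304 (B) CPM in WT against 516 (A) and 311 (B) CPM in KO, with sample A above sample B in both genotypes, as in Plec.

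The listed genes of the nuclear envelope had a median log2 fold change of 0.06, and those that process lamins one of 0.17, beside 0.19 for the family. Of 12 nuclear envelope genes listed, 11 were tested and 0 passed by edgeR. At an unadjusted p under 0.05, 1 was higher (Emd, 0.47, SE 0.19) and 1 lower (Syne3, -2.57, SE 0.64), both named after their values were seen. DESeq2 called 1 lower, Syne3. Lbr, the receptor for B-type lamins, stood at 169 (A) and 149.6 (B) CPM in WT against 127 (A) and 131 (B) CPM in KO (log2 difference -0.31, SE 0.13, edgeR adjusted p = 0.356), and Tmpo, which encodes lamina-associated polypeptide 2, at 0.23 (SE 0.16). All 5 lamin processing enzyme genes were tested and lay between -0.07 and 0.25 in log2, and 0 passed by edgeR, by DESeq2 or at an unadjusted p under 0.05. They include Zmpste24, the prelamin A protease gene (0.17, SE 0.16), and Fnta, a farnesyltransferase subunit gene (0.23, SE 0.18).

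Of 6 genes for kinases that phosphorylate filaments, 0 passed by edgeR. At an unadjusted p under 0.05 there were 1 higher (Rock2) and 2 lower (Aurkb and Prkca), and DESeq2 called 0 higher and 2 lower. The mitotic kinase gene Plk1 stood at -0.08 (SE 0.13) and Rock2 at 0.48 (SE 0.15, edgeR adjusted p = 0.207). Aurkb and Prkca, named after their values were seen, lie on chromosome 11, whose genes as a whole had a median log2 fold change of -0.47 in KO. No member of the filament and lamina family lies on chromosome 11 or on chromosome 8, whose median was 0.25. None lies on chromosome Y either, where the median of 4 genes was -2.09, the lowest of any chromosome. What lies behind these chromosome medians was not tested. The 7 chromosomes that carry the members had medians of -0.002 to 0.036. Other tested genes named here include Pecam1, Krt14, Krt19, Nefh and Myl7 on chromosome 11, and Fnta, Cdh1 and Cdh5 on chromosome 8.

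Markers of other cell types that could be in the sorted fraction were examined next. The background is as above, with an unadjusted p under 0.05 for 1278 higher and 1319 lower of 16785 genes. Of 12 smooth muscle and mesenchyme markers all 12 were tested and lay above 0. The collagen gene Col1a2 (3.19, SE 0.28) passed by edgeR, 9 were higher at an unadjusted p under 0.05 and 9 by DESeq2, and 0 were lower by any of these. Their summed level was 1268 (A) and 1769 (B) CPM in WT against 2872 (A) and 4960 (B) CPM in KO. Acta2, smooth muscle actin, stood at 346 (A) and 384 (B) CPM in WT against 514 (A) and 1025 (B) CPM in KO (1.08, SE 0.35), and Tpm1 at 1.11 (SE 0.27). Their part in the Des and Lmna differences was not tested.

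Desmin is also a protein of heart and skeletal muscle. Of 9 markers of these, 7 were tested, and 0 passed by edgeR, by DESeq2 or at an unadjusted p under 0.05. They summed to 136 (A) and 247 (B) CPM in WT against 129 (A) and 229 (B) CPM in KO, with cardiac actin Actc1 at 0.12 (SE 0.19) and the myosin gene Myh7 at 0.20 (SE 0.53). The skeletal muscle factors Myod1 and Myog were at or near 0, with 1 and 3 reads in WT and 2 and 2 in KO. The tested markers were split, 4 above 0 and 3 below, with Myl7 lowest at -3.20 (SE 1.36). Myl7 was at 4.31 (A) and 49.9 (B) CPM in WT against 4.49 (A) and 1.44 (B) CPM in KO. The list does not hold all muscle genes. Outside it, and named after their values were seen, Acta1 (1.63, SE 0.325) and Hrc (1.85, SE 0.198) lay above 0 and Tbx20 (-1.37, SE 0.725) below. None of these passed by edgeR.

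Nestin is a standard marker of neural progenitors. Of 10 neuroectoderm markers, 7 were tested and all 7 lay above 0, from 0.004 to 0.98. None passed by edgeR or DESeq2, and an unadjusted p under 0.05 was seen for 2 higher and 0 lower genes, Sox3 (named after its value was seen) and Zic2, each above WT in every KO library. The list's sum was 145 (A) and 146 (B) CPM in WT against 202 (A) and 149.7 (B) CPM in KO, and Otx2 made up the largest part of it in each sample. Otx2 stood at 0.05 (SE 0.20) and Zic2 at 0.57 (SE 0.19), and the neural genes Hes5 and Neurog2 had 11 and 8 reads in WT and 5 and 1 in KO. Their part in the Nes difference was not tested.

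Epithelial and endoderm markers summed to 914 (A) and 645 (B) CPM in WT against 1553 (A) and 1735 (B) CPM in KO. Of 7, 6 were tested and 0 passed by edgeR, with 3 higher and 0 lower at an unadjusted p under 0.05 and 2 higher by DESeq2. The list was split, with 3 genes above 0, 3 below 0 and a median log2 fold change of 0.15, and the most abundant of those above 0 carried the sum. The E-cadherin gene Cdh1 stood at 608 (A) and 396 (B) CPM in WT against 1058 (A) and 1097 (B) CPM in KO (1.10, SE 0.22), and the claudin gene Cldn6 at 1.64 (SE 0.20, edgeR adjusted p = 0.0689). The endoderm genes Sox17 (-1.43, SE 0.55, every KO library below WT), Ttr (-0.43, SE 0.57) and Foxa2 (1.96 and 10.5 CPM in WT, 4.75 and 1.52 CPM in KO), picked once the values were seen, lay below 0. Krt7, Krt8 and Krt18 stood higher in the same samples. The other tested keratins, Krt5 (0.49, SE 0.28), Krt14 (-0.12, SE 0.37) and Krt19 (0.35, SE 0.35), overlapped between the genotypes. The part of epithelial cells in the family's differences was not tested.

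Markers of the sorted precursors stood lower in KO. All 8 haemangioblast markers lay below 0, with 0 past edgeR, 5 lower at an unadjusted p under 0.05 and 4 lower by DESeq2. Their sum was 764.5 (A) and 924 (B) CPM in WT against 429.5 (A) and 193 (B) CPM in KO, and Kdr, the marker of the sort, had a log2 fold change of -1.73 (SE 0.59) and Kit one of -0.78 (SE 0.36). Endothelial markers, with 6 tested, summed to 731 (A) and 386 (B) CPM in WT against 467 (A) and 205 (B) CPM in KO, with 0 past edgeR, 2 lower at an unadjusted p under 0.05 and 1 lower by DESeq2, and with Pecam1 at -2.03 (SE 0.55) and Cdh5 at 0.05 (SE 0.61).

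Pluripotency and primitive streak markers differed most between the samples of WT. Pluripotency markers summed to 1840 (A) and 489.9 (B) CPM in WT against 829 (A) and 1062 (B) CPM in KO. Of 8, 0 passed by edgeR and 2 were lower at an unadjusted p under 0.05 and by DESeq2, with Pou5f1 at 0.50 (SE 0.61) and Dppa5a at -0.32 (SE 1.03). Primitive streak markers summed to 16.9 (A) and 183 (B) CPM in WT against 51.3 (A) and 18.2 (B) CPM in KO, and 0 of 6 passed by edgeR, by DESeq2 or at an unadjusted p under 0.05, with Eomes at -1.78 (SE 1.30) and Fgf8 at -0.53 (SE 0.66). Nes, at 110.5 and 109.4 CPM in the same WT samples, and Vim, at 701 and 775 CPM, differed far less between them.

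**Figure D4:**
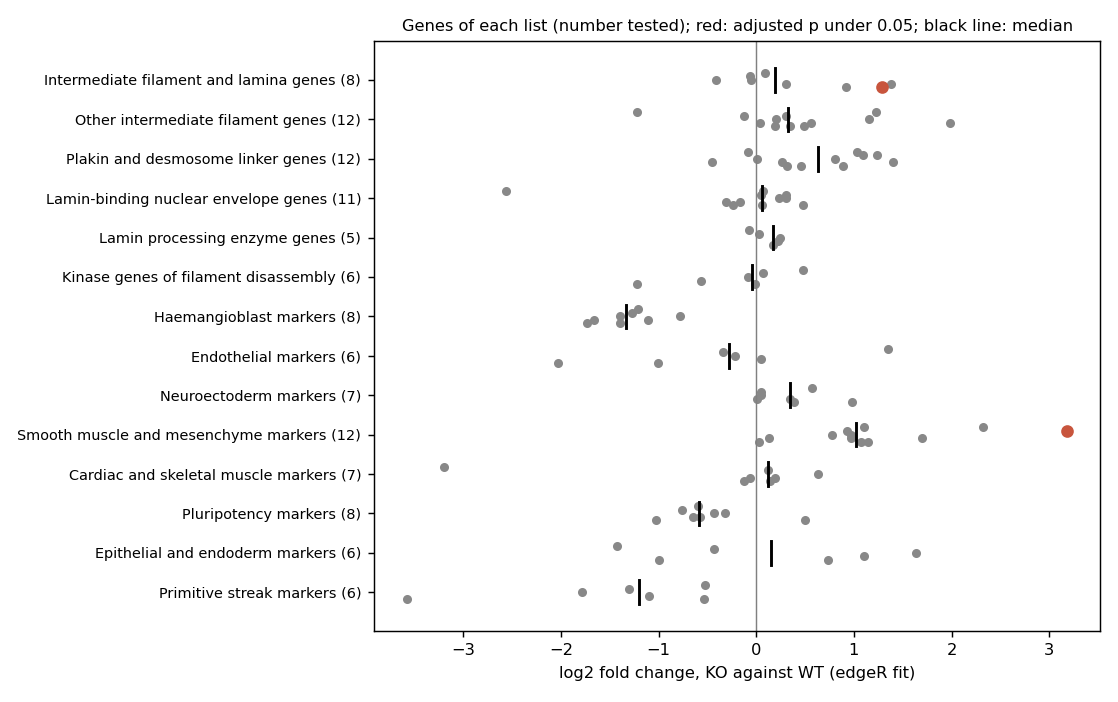
Log2 fold change of KO against WT (horizontal axis) for every tested gene of the family and of 13 related or marker lists. Red points passed an edgeR adjusted p of 0.05 (Nes and Col1a2) and black lines are list medians, 0.19 for the family, 1.03 for smooth muscle and mesenchyme markers and -1.33 for haemangioblast markers.

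The genes whose level followed that of Nes most closely were sought among 9924 genes with a symbol, predicted genes left out, and a mean of at least 10 CPM, by the distance between log2 CPM profiles over the 4 samples, each centred on its mean. The nearest 5 were Tgm1, a transglutaminase of epithelia (distance 0.088), the tight-junction gene Cgn (0.119), the growth factor gene Tgfa (0.129), the membrane glycoprotein gene Cdcp1 (0.134) and the pro-apoptotic gene Bmf (0.137). Des, at 0.184, was the nearest member, and Vim lay at 1.70. The 5 were picked for this likeness, so their log2 fold changes of 1.22 to 1.42 are fixed by the choice.

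Nes and Lmna lie near each other on chromosome 3, with 14 tested genes between them in the RefSeq order. Those 14 had a median log2 fold change of 0.05, from -1.01 to 1.35, with 8 above 0. By edgeR 0 were called, the unadjusted p was under 0.05 for 3, and 1 was called with DESeq2. Tmem79 and Sema4a, named after their values were seen, were the highest and the lowest.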

How the data were processed

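The authors deposited raw counts of reads, 1 row for each Ensembl gene and 1 column for each of 8 RNA-seq libraries, and a transcript length, per the file headers. The submitters' processing notes name the build mm9 and DESeq. Aligner, counting tool, strand setting and annotation release: not given in the sources used here. Of 21868 genes, 20362 were paired with a symbol. Listed genes Eppk1, Syne1 and Sox1 were not matched.

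Pairs of libraries were set against each other with a chi-square value for every gene (at least 20 reads in the pair; a mean of 1 is sampling noise). It averaged 1.065 to 1.101 for libraries 1 with 2 and 3 with 4 of a genotype, and 12.764 or more for other pairs. Libraries 1 and 2, and 3 and 4, were therefore summed, giving 22674679 to 26775787 counts per sample. Counts were filtered with filterByExpr (all 8 members passed), scaled by TMM and fitted with the edgeR 4.0.16 quasi-likelihood test in R 4.3.3 over all 16785 genes, with p adjusted by Benjamini-Hochberg and called at 0.05. SE is the log2 fold change over the square root of F. DESeq2 1.42.0 and limma-voom (limma 3.58.1) were alternatives. Scripts were tested on simulated data. Log2 CPM used a prior count of 2. Levels per length used the transcript length, since the table holds no coding length.

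The members and lists were chosen with earlier results of these data known. Genes outside the members were named by a rule: list genes past the test (up to 4) and the 2 most abundant that did not pass, and the 5 genes nearest to Nes. Genes behind small counts of calls, and listed genes too low to be tested (Gfap, Hes5, Neurog2, Myod1, Myog), had their names chosen with the values in view. So did other genes marked that way in the text. The ChIP-seq peak list is in mm9, the RefSeq table in GRCm38.p6, so peaks were not used here. A promoter entry was used for 6 of 8 members.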

Additional observations from a re-analysis of the deposited data

How the results depend on the processing

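The direction of the Nes, Des, Vim, Lmna, Lmnb1 and Lmnb2 differences was the same under all 23 alternatives. Of these, the adjusted p of 0.01 repeats the edgeR fit and could not change a direction. Leaving out a single library keeps the other, closely similar library of its sample. The log2 fold change of Nes ranged from 1.23 to 1.35, of Des from 1.24 to 1.51, of Vim from -0.49 to -0.33, of Lmna from 0.58 to 1.19, of Lmnb1 from 0.18 to 0.43 and of Lmnb2 from -0.10 to -0.01. Synm and Plec, near 0, changed sign when a library or sample was left out, over -0.28 to 0.14 and -0.12 to 0.27. With RLE, upper quartile or library size scaling, 1 member was called, and the median log2 fold change of the members was 0.17 to 0.19.

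Counts of called genes depended strongly on the model, against 31 genes (21 lower, 10 higher) and 1 member in the edgeR fit. DESeq2 called 1159 genes and 3 members, and edgeR without a filter on low counts 151 and 2. The 8 libraries fitted separately gave 3860 and 5, a fit that counts libraries agreeing nearly within read sampling as replicates. Limma-voom called 3 genes, keeping genes with 1 CPM in 2 or more samples 5, an adjusted p of 0.01 2, and removal of each chromosome's median 5, each with 0 members. The sample letter as a replicate block gave 5 genes and 0 members, with Nes at an adjusted p of 0.0867. The labels do not say that same-numbered libraries were paired, and the deviations of WT A and KO A from their group means had a correlation of -0.098 over genes. Leaving out 1 library or sample gave 0 to 1674 genes and 0 to 3 members. The causes were not tested. With 2 samples per genotype, the unadjusted p was under 0.05 for 1319 lower and 1278 higher genes.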
